A study of Mus musculus with 4 samples.

Results

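The genes described here are the metallothioneins and the core genes of iron handling, taken from the deposited expression table by exact symbol. All 10 symbols were present among the 23281 genes of the table: Mt1, Mt2, Fth1, Ftl1, Tfrc, Slc11a2, Slc40a1, Cp, Hamp and Trf. RNA sequencing had been done on 3 libraries of mouse olfactory horizontal basal cells (HBCs), quiescent stem cells at the base of the smell epithelium, grown from wildtype mice to passage 3 with no sort recorded. The other group was 1 library of respiratory basal cells (RBCs), the stem cells of the nasal airway lining, which had been microdissected and sorted as TdTomato+ cells. The RBC donor strain was KRT5-CreER;Ai9-fl(stop)TdTomato, in which a keratin 5 promoter drives an inducible Cre recombinase that switches on the red reporter. The sources used here give no ages, no drug that induces the Cre and no number of animals per library, and nothing says whether the HBC libraries came from separate cultures. Culture against tissue, olfactory against respiratory origin, strain and sort all differ between the same groups and cannot be told apart.

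Metallothioneins are small cysteine-rich proteins that bind zinc and copper, and their genes are switched on by zinc through the metal-sensing transcription factor Mtf1. Cells take up iron mostly as transferrin (Trf) bound to its receptor (Tfrc), carry it out of the endosome through Slc11a2, store it in ferritin shells made of heavy (Fth1) and light (Ftl1) chains, and export it through ferroportin (Slc40a1) with the help of copper ferroxidases such as ceruloplasmin (Cp). Hepcidin (Hamp) is the hormone that removes ferroportin from the cell surface. Iron regulatory proteins bind hairpins in the untranslated regions of several of these mRNAs, blocking translation from hairpins near the start and protecting the Tfrc message through hairpins after its coding region.

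Of the 10 members, 4 were called higher in the RBC library (Trf, Slc40a1, Hamp and Cp), 2 were called higher in the HBC libraries (Tfrc and Fth1) and 4 were not called (Mt1, Mt2, Ftl1 and Slc11a2). A call needed an adjusted p under 0.05 in limma's test on log2 values and a change of at least 2-fold. Across the 16440 genes tested, the same rule called 34.2% in the direction of RBCs and 12.8% in that of HBCs. All 10 members passed the filter on low values, but Hamp and Trf, whose HBC means lay under its minimum of 1, passed only through the RBC library and so had to differ. Of 2652 genes that passed in this way, 89.8% were called toward RBCs, and nothing is read from these calls. The other 8 members divided into 2 called in each direction and 4 not called. Their median log2 change was -0.14, beside 0.13 over the 13788 tested genes with an HBC mean of at least 1. Of those 13788 genes, 3239 were called toward RBCs and 2105 toward HBCs, and the split of the 8 members is not read as a result. Values are depth-scaled FPKM, that is, fragments per kilobase of transcript divided by 1 depth factor per library, so levels of different genes can be set side by side. The RBC library has no replicate. Limma's p-values therefore take their spread from the HBC libraries (2 residual degrees of freedom), assume the RBC library varies as they do, and measure spread that may be technical. In an exact permutation test on a single gene, 1 library against 3 could not give a p below 0.25.

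**Figure D1:**
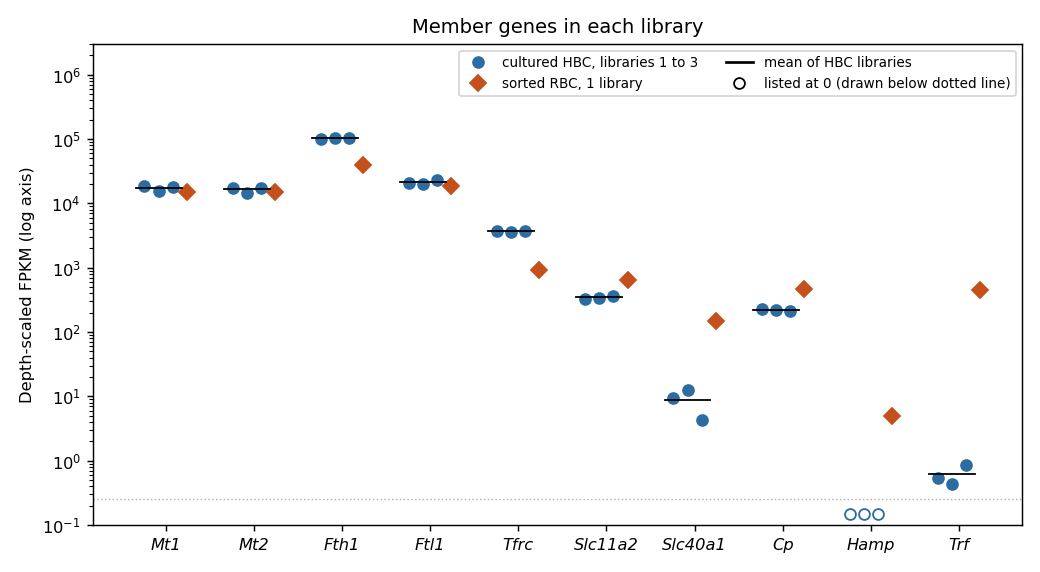
Depth-scaled FPKM (log axis) of each member in the 3 HBC libraries (circles) and the RBC library (diamond), with the HBC mean as a line and values of 0 drawn open below the dotted line. The metallothioneins and Ftl1 sit at one height in all 4 libraries, Fth1 and Tfrc drop in the RBC library, and Slc40a1 and Trf rise there from 8.82 and 0.616 on average to 150 and 442.5.

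Deposited values summed to between 8377232 and 10855996 per library, and the depth factors ran from 0.843 to 1.07. The number of reads per library is unknown. All 12 basal cell markers were detected in both groups, and 9 of them were called, each with the higher level in RBCs. Keratin 5, whose promoter drives the Cre of the sort, was at 18625 ± 369 (SD, n = 3) in HBCs and 26488 in RBCs, under the 2-fold minimum. Markers of other cell types were also present in the RBC library: across 9 lists (leukocytes, macrophages, erythrocytes, fibroblasts, endothelium, glia, secretory and gland cells, ciliated cells and olfactory neurons), 58 of 72 tested markers had a call toward RBCs and 3 toward HBCs. Of these 72, 38 passed the filter only through the RBC library, and among the other 34 the calls numbered 23 and 3. Secretory and gland markers summed to between 19981 and 21069 in HBC libraries and to 600411 in RBCs. The HBC sum was nearly all Aqp5, which was called higher in HBCs, and the other 9 markers summed to between 206 and 216 in HBCs and to 594877 in RBCs. Fibroblast markers summed to between 485 and 498 in HBCs and to 9695 in RBCs. Their part in any member's difference was not tested. In bulk RNA, fewer cells of a type and less RNA per cell cannot be told apart.

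The metallothionein genes were among the most abundant in all 4 libraries and were not called different between the groups. Mt1 was at 18290, 15474 and 17763 in HBC libraries 1, 2 and 3 and at 15174 in the RBC library. Mt2, its close neighbour on the chromosome, gave 17385, 14584 and 17293 in the same cultures and 15129 in RBCs. HBC library 2 was the lowest HBC library for both genes, and the RBC value lay inside the HBC range for Mt2 and just below it for Mt1. Mt1 ranked between 57 and 77 among all genes and Mt2 between 66 and 82 over the 4 libraries. The log2 change was -0.18 for Mt1 (95% interval -0.64 to 0.29, limma adjusted p = 0.327) and -0.11 for Mt2 (95% interval -0.63 to 0.40, limma adjusted p = 0.538). These intervals leave room for a moderate difference in either direction. The changes also depended on the scaling: with equal medians they were -0.68 for Mt1, below its interval, and -0.62 for Mt2. The sign for Mt2 turned under quantile normalization (0.04). The ratio of Mt1 to Mt2 within a library, which needs no depth factor, was 1.05, 1.06 and 1.03 in HBC libraries and 1.003 in RBCs, so the pair held nearly equal levels per length in each library.

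The promoters of this pair are shown because the levels of both genes stayed together, and because zinc acts on them through short metal response elements. Below are the 250 bases before the RefSeq start of each gene (build GRCm38.p6, plus strand), with capitals on matches to the element's core, searched as TGCGCNC and TGCACNC on both strands, overlapping matches merged.
Mt1, chr8:94178839-94179088: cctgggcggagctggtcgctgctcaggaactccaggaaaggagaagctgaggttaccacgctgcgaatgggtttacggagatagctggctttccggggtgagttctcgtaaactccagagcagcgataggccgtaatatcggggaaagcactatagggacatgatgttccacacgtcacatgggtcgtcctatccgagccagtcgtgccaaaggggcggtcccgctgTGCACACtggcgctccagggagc
Mt2, chr8:94172368-94172617: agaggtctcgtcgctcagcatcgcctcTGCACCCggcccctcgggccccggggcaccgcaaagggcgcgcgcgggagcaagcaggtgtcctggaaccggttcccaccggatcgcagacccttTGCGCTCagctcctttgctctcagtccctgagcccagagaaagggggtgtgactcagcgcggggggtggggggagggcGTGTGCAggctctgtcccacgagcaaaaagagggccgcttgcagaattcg
In these 250 bases Mt1 held 1 match and Mt2 held 3. Among 32851 promoter windows of this length, 21.4% held at least 1 match and 0.770% held at least 3. In the table's full windows of 300 bases, which run on past the start, Mt1 held 3 and Mt2 held 4, and 1.31% and 0.295% of all windows held as many. The counts thus depend on where the start is placed, and the stretch shown for Mt1 leaves out matches that lie close to it. They do not rank the promoters of the pair. A match is a run of letters and not a measured binding site. Of the other members with a promoter in the table, 1 of 2 Tfrc windows held a match, and the windows of Fth1, Ftl1, Cp and Hamp held 0. Promoters of Slc40a1, Slc11a2 and Trf were not analysed here.

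The ferritin chains behaved differently from each other: Fth1 was lower in the RBC library and Ftl1 was not called. Fth1, the heavy chain with ferroxidase activity, was at 100727, 104338 and 104798 in HBC libraries 1, 2 and 3 and at 39121 in the RBC library. All 3 HBC values thus stood well above the RBC value, and Fth1 was the fifth most abundant gene in each HBC library (rank 5) and ranked 15 in RBCs. It made up 1.01%, 1.06% and 1.03% of the summed HBC values and 0.420% of the RBC sum. HBC levels were 2.64-fold higher (103288 ± 2230 (SD, n = 3), log2 change -1.40 ± 0.27 (SE), limma adjusted p = 0.0275). Although the direction held in all 12 alternatives, its limma adjusted p ran from 0.000778, in the fit without the mean-variance trend, to 0.265. It missed the threshold on the unscaled values (0.265), at a pseudocount of 0.1 (0.123) and when HBC library 1 (0.0928) or 2 (0.102) was left out. Ftl1, the light chain that helps iron settle in the shell, was at 20505, 20207 and 23385 in HBCs and at 18919 in RBCs. The RBC value lay a little below the HBC range, and the log2 change was -0.17 (95% interval -0.61 to 0.27, limma adjusted p = 0.312). With equal medians the log2 change of Ftl1 was -0.68, below that interval but under the 2-fold minimum. The ratio of heavy to light chain per length was 4.91, 5.16 and 4.48 in the HBC libraries and 2.07 in the RBC library. Heavy chain transcripts exceeded light chain transcripts in all 4 libraries, by a smaller factor in RBCs. Both genes have processed copies elsewhere in the genome, so their reads could be split or shared.

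**Figure D2:**
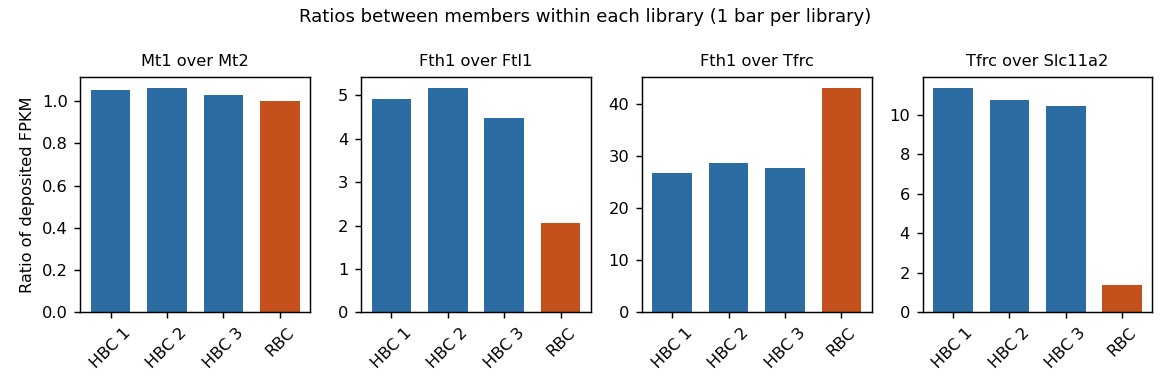
Ratio of deposited FPKM of a pair of members within each library, 1 bar per library, for Mt1 over Mt2, Fth1 over Ftl1, Fth1 over Tfrc and Tfrc over Slc11a2. Mt1 and Mt2 stay near a ratio of 1 throughout, while Fth1 over Ftl1 is 2.07 and Tfrc over Slc11a2 is 1.39 in the RBC library, below all HBC values.

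Among the genes of iron entry, the transferrin receptor was higher in the cultures. Tfrc was at 3759, 3637 and 3776 in HBC libraries 1, 2 and 3 and at 908 in RBCs. The HBC libraries lay within a narrow band and the RBC value far below it. HBC levels were 4.10-fold higher (3724 ± 75.8 (SD, n = 3), log2 change -2.03 ± 0.03 (SE), limma adjusted p = 0.000244), a larger fall than in all but 4.71% of tested genes. That share counts all tested genes, with the 2652 that passed the filter only through the RBC library and so could not fall. The Tfrc call held in all 12 alternatives, with log2 changes from -2.54 to -1.79. Slc11a2, the divalent metal transporter of endosome and gut, went the other way in level: it was at 331, 338 and 361 in HBCs and at 653 in RBCs, above each HBC library. Its 1.90-fold difference missed the 2-fold minimum (log2 change 0.93, 95% interval 0.70 to 1.15, limma adjusted p = 0.00402). It passed with equal column sums (1.03) and under quantile normalization (1.01). Tfrc exceeded Slc11a2 by 11.4, 10.8 and 10.4 times per length in HBC libraries and by 1.39 times in RBCs. The receptor was thus the far more abundant of these transcripts in the cultures, while the RBC library held them at more similar levels. Fth1 exceeded Tfrc by 26.8, 28.7 and 27.8 times in HBCs and by 43.1 times in RBCs.

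The hairpins that iron regulatory proteins bind, the iron-responsive elements, are shown because the proteins act on these mRNAs through them. Among the members with a match, their place differed between Tfrc and Fth1, Ftl1 and Slc40a1. GENCODE M21 transcripts (GRCm38) were searched for 17 bases made of a C, 5 stem bases, the loop CAGTGN in capitals below, and 5 bases that pair with the stem, G with T allowed.
Fth1, starting 132 bases before the start codon: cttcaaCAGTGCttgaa
Ftl1, starting 170 bases before the start codon: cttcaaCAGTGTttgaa
Slc40a1, starting 224 bases before the start codon: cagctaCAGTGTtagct
Tfrc, starting 889 bases after the stop codon: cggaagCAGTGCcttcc
Tfrc, starting 1268 bases after the stop codon: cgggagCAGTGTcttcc
Tfrc, starting 1333 bases after the stop codon: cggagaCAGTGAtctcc
Tfrc, starting 1380 bases after the stop codon: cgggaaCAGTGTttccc
A match before the coding region was found in 31 of 21901 protein coding genes (0.142%) and a match after it in 129 (0.589%). The 3 members with the element before the coding region did not share a direction: Fth1 was lower in RBCs, Slc40a1 was higher and Ftl1 was not called. The other 6 members, Slc11a2 among them, held no match to this strict form in an untranslated region. That says nothing of looser forms, before or after the coding region. FPKM measures RNA and not the translation that the hairpins of Fth1, Ftl1 and Slc40a1 act on.

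**Figure D3:**
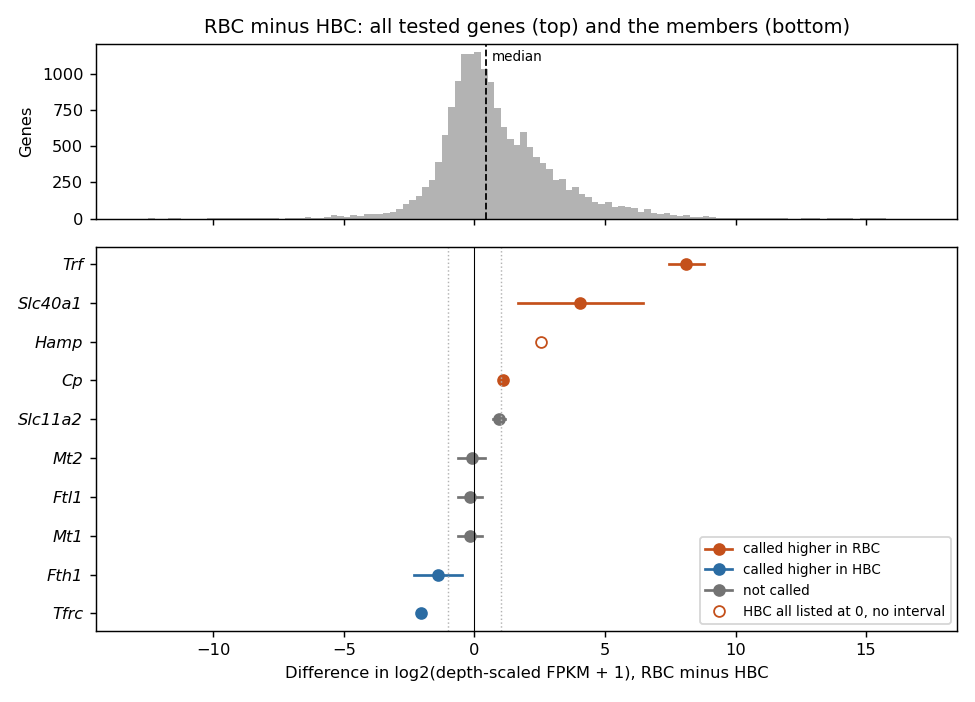
Top, histogram of the log2 difference (RBC minus HBC) over all 16440 tested genes, with a dashed line at the median of 0.45. Bottom, the same difference for each member, coloured by call, with dotted lines at 2-fold. Limma's 95% interval is drawn for all but Hamp, whose HBC values were all 0. The interval of Trf is not read, since Trf passed the filter only through the RBC library. Tfrc and Fth1 lie to the left, Cp, Hamp, Slc40a1 and Trf to the right.

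The export genes Slc40a1 and Cp were both called higher in the RBC library, though neither call held in every alternative. Slc40a1, the only known iron exporter of mammalian cells, was at 9.50, 12.6 and 4.35 in HBC libraries 1, 2 and 3 and at 150 in RBCs. HBC values were low and spread widely, yet all 3 lay far under the RBC value. The RBC level was 17.02-fold higher (HBC mean 8.82 ± 4.18 (SD, n = 3), log2 change 4.05 ± 0.70 (SE), limma adjusted p = 0.0220). Over the alternatives the limma adjusted p ran from 0.00655 to 0.0881, and it missed the threshold when HBC library 1 (0.0881) or 2 (0.0555) was left out. Ferroportin is also abundant in macrophages, and the markers listed for them moved with it. All 6 tested of 8 macrophage markers were called higher in RBCs (4 of them passed the filter only through that library), the summed level ran from 44.1 to 48.2 in HBCs and stood at 362 in RBCs, and Marco and Vsig4 were listed at 0 in all 4 libraries. Cd68 and Cd14, kept among the leukocyte markers, went the other way. Cd68 averaged 515 ± 42.6 (SD, n = 3) in HBCs and stood at 65.7 in RBCs, a call toward HBCs. Cd14 averaged 2591 in HBCs and stood at 1322 in RBCs, and was not called. Of the 13 leukocyte markers tested, 10 had a call toward RBCs, 7 of them having passed the filter only through that library. The part of macrophages in the Slc40a1 difference was not tested. Cp, the secreted ferroxidase ceruloplasmin, was at 225, 219 and 213 in HBCs and at 472 in RBCs, above each HBC library. It was 2.16-fold higher in RBCs (log2 change 1.11 ± 0.04 (SE), limma adjusted p = 0.00130) and fell below the 2-fold minimum with equal medians (0.60).

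Hepcidin was close to the limit of the table. For Hamp the table lists 0 in each of the 3 HBC libraries, and the RBC value was 4.85, so no fold is given. Its call was lost with a pseudocount of 10, and it was not tested with a minimum of 5 or under quantile normalization. Hamp2, a close paralogue of Hamp, was listed at 0 in all 4 libraries, and the split of reads between the 2 genes is uncertain.

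Transferrin was near the floor of the table in HBCs and well above it in RBCs. Trf was at 0.545, 0.438 and 0.866 in HBC libraries 1, 2 and 3 and at 442.5 in RBCs. As deposited, the HBC values were 0.460, 0.459 and 0.923, so that the value in library 3 was 2.01 times that in library 1 and the values in libraries 1 and 2 were nearly equal. Steps of this kind are what single reads leave in a table without depth correction, so the HBC level is at the floor and no fold is given. Because the RBC value alone brought Trf past the filter, no test is given for it. Trf is made in liver, some glia and some glands, and markers of such cells moved with it: 6 of 7 tested glial markers and 7 of 9 tested secretory and gland markers were called higher in RBCs, 5 of each having passed the filter only through the RBC library. Summed glial markers ran from 203 to 219 in HBCs and stood at 591 in RBCs. Mbp, which was not called, made up nearly all of the HBC sum, and the other 7 summed to between 4.46 and 12.8 in HBCs and to 306 in RBCs. Sox10 was at 109 in RBCs and Foxd3 was listed at 0. Their part in the Trf level was not tested.

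Genes with the most similar levels were looked for among 14889 tested genes outside the lists, by the root mean square difference of log2 values over the 4 libraries. Nearest to Tfrc were Commd3 (0.0656), Stom (0.0673) and Txndc17 (0.0747). Commd3 averaged 3820 ± 228 (SD, n = 3) in HBCs and stood at 865 in RBCs. Nearest to Trf were Sema3d (0.310), Atp13a5 (0.373) and Enho (0.381). Sema3d averaged 0.857 ± 0.214 (SD, n = 3) in HBCs and stood at 551 in RBCs. With 3 of the 4 libraries from one group, such nearness reflects little more than a pair of levels.

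Related genes were followed in 6 lists with 101 entries, of which 89 were tested. Calls toward RBCs numbered 22 (24.7%), calls toward HBCs 12 (13.5%), and 55 genes were not called, beside 34.2% and 12.8% of all tested genes. Their median log2 change was 0.14, beside 0.45 over all tested genes. Only 6 of the 89 passed the filter through the RBC library alone, while 2652 of the 16440 tested genes did, so these shares and medians are not alike. Among the other 83 the median was 0.08, beside 0.13 over the 13788 tested genes with an HBC mean of at least 1. Of these 83, 17 were called toward RBCs and 12 toward HBCs, beside 3239 and 2105 of the 13788. The share of calls that were higher in RBCs over all genes was 72.8%, and it became 53.2% with equal medians and 45.9% under quantile normalization.

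Among 19 tested genes of metallothioneins and zinc transport, 3 had a call toward RBCs, 2 had one toward HBCs and 14 had none (median log2 change 0.08). All 19 had an HBC mean of at least 1, as did 13788 of all tested genes, with 3239 and 2105 called. The zinc importers Slc39a4 and Slc39a10 were higher in RBCs, by 29.5-fold (697 against 23.6 ± 1.72 (SD, n = 3), limma adjusted p = 0.000634) and 4.35-fold (712 against 163 ± 0.567). Slc39a2 was 4.23-fold higher, with a limma adjusted p of 0.0107 that missed the threshold when HBC library 3 was left out (0.0570) and under quantile normalization (0.123), in a range of 0.00514 to 0.123. The zinc exporter Slc30a4 and the transporter Slc39a11 were 2.62-fold and 2.29-fold higher in HBCs. Slc30a1, the plasma membrane zinc exporter that Mtf1 switches on together with the metallothioneins, was at 143 ± 7.85 (SD, n = 3) and 229, under the 2-fold minimum. Mtf1 itself was at 103 ± 1.82 (SD, n = 3) in HBCs and 82.9 in RBCs, also under that minimum, although it was called higher in HBCs under quantile normalization (log2 change -1.16). The other metallothioneins were near the floor: Mt3 was at 0, 5.48 and 0 in HBCs and 11.1 in RBCs, and Mt4 was at 0, 4.78 and 9.98 in HBCs and 0 in RBCs. Both were named after their values were seen, and neither was called.

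Of 12 tested copper genes, 2 were called higher in each direction (median log2 change 0.21). All 12 had an HBC mean of at least 1. Of the 13788 tested genes with such a mean, 3239 were called toward RBCs and 2105 toward HBCs. The copper and zinc superoxide dismutase Sod1 was 2.49-fold higher in RBCs (15026 against 6040 ± 163 (SD, n = 3), limma adjusted p = 0.00111) but fell below the 2-fold minimum with equal medians (log2 change 0.81). The copper exporter Atp7b averaged 1.18 ± 0.514 in HBCs and stood at 119 in RBCs (limma adjusted p = 0.00307). Cox17, a copper chaperone of cytochrome oxidase, was 3.94-fold higher in HBCs (9731 ± 723 against 2469). Sco2, another such factor, was 3.13-fold higher in HBCs, and its limma adjusted p missed the threshold on unscaled values (0.112) and when HBC library 2 (0.127) or 3 (0.0918) was left out, in a range of 0.0131 to 0.127.

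Of 13 tested genes of iron uptake beyond the members, 7 had a call toward RBCs, 3 toward HBCs and 3 had none (median log2 change 1.08), beside 34.2% and 12.8% of all tested genes. Cybrd1, Scara5, Slc11a1 and Mfi2 passed the filter only through the RBC library, and among the other 9 the calls numbered 4 and 3 (median 0.01). Steap4, a metalloreductase, was 123-fold higher in RBCs (1088 against 8.84 ± 0.838 (SD, n = 3), limma adjusted p = 0.000515). Cybrd1, a ferric reductase, and Scara5, a ferritin receptor, averaged 0.416 ± 0.367 and 0.924 ± 0.383 in HBCs and stood at 52.8 and 64.6 in RBCs. Scara5 is known from fibroblast-like cells, and 9 of 10 tested fibroblast markers were called higher in RBCs too, a link that was not tested. Among secreted proteins that bind iron or its carriers, Lcn2 and Ltf stood high in the cultures, while the member Trf was at the floor there. Lcn2, which captures bacterial siderophores, was at 11827 ± 126 (SD, n = 3) against 764, a 15.5-fold difference (limma adjusted p = 2.5e-05). Ltf, lactoferrin, averaged 119163 in HBCs, above Fth1, and 18086 in RBCs, and its call was lost with values as deposited (limma adjusted p = 0.0733, range 7.02e-05 to 0.0733). Steap1 was 2.30-fold higher in HBCs, and its limma adjusted p missed the threshold on unscaled values (0.0530) and when HBC library 1 was left out (0.0537), in a range of 0.00341 to 0.0537.

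Of 6 tested genes of iron storage and export beyond the members, 2 had a call toward RBCs and 1 toward HBCs (median log2 change 0.50). Of the 5 with an HBC mean of at least 1, 1 was called in each direction, beside 3239 and 2105 of 13788 such genes. Hephaestin (Heph), the membrane-bound relative of ceruloplasmin, averaged 0.429 ± 0.188 (SD, n = 3) in HBCs and stood at 240 in RBCs. Since Heph passed the filter only through the RBC library, no test is given for it. Ncoa4, the receptor that delivers ferritin for degradation, was 2.13-fold higher in RBCs, but below the 2-fold minimum with equal medians (log2 change 0.58), quantile normalization (0.46) and a pseudocount of 10 (0.99). Abcg2, a porphyrin and drug exporter, was 8.76-fold higher in HBCs (99.2 ± 14.9 against 11.3, limma adjusted p = 0.00413). Ftl2, Flvcr1 and Flvcr2 were not analysed here, and the value of Ftmt was 0 in each of the 4 libraries.

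Of 10 tested genes of iron regulation, 4 had a call toward RBCs, 1 toward HBCs and 5 had none (median log2 change 0.18). Among the 9 with an HBC mean of at least 1 the calls numbered 3 and 1, beside 3239 and 2105 of 13788 such genes. The iron regulatory proteins Aco1 and Ireb2 were at 268 ± 6.59 and 534 ± 17.9 (SD, n = 3) in HBCs and at 299 and 364 in RBCs, both under the 2-fold minimum. The direction of Aco1 turned with equal medians (log2 change -0.35), and Ireb2 was then called higher in HBCs (-1.06). Fbxl5, the ubiquitin ligase subunit that removes Ireb2 when iron is present, was at 619 ± 15.8 and 714, also under that minimum, and turned with equal medians (-0.30). Epas1, a hypoxia-inducible factor whose mRNA is itself bound by iron regulatory proteins, was 62.5-fold higher in RBCs (20858 against 334 ± 7.95 (SD, n = 3), limma adjusted p = 2.4e-05). Epas1 is also abundant in endothelium, and 7 of 9 tested endothelial markers were called higher in RBCs, all 7 having passed the filter only through that library. Egfl7, called the other way, averaged 109 ± 27.1 (SD, n = 3) in HBCs and stood at 19.3 in RBCs, and the other 8 markers summed to between 1.90 and 3.31 in HBCs and to 76.7 in RBCs. Their part in the Epas1 level was not tested. Hfe, a regulator of hepcidin, was 11.6-fold higher in RBCs (125 against 10.7 ± 1.98). Tmprss6, a protease that restrains hepcidin, averaged 0.437 ± 0.464 in HBCs and stood at 41.5 in RBCs, and it too passed the filter only through the RBC library. Fam132b, which encodes erythroferrone, was 3.60-fold higher in HBCs (26.8 ± 0.973 against 7.44).

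**Figure D4:**
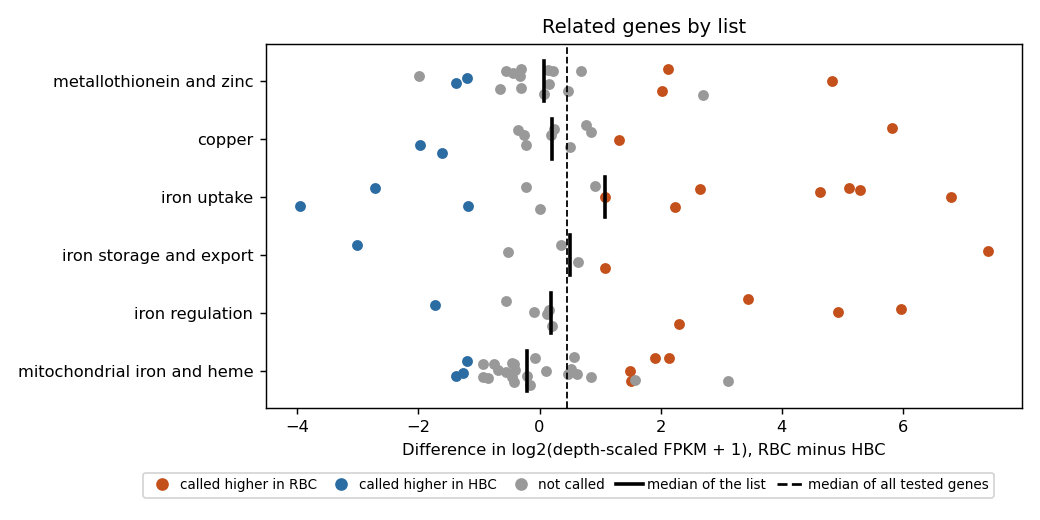
Log2 difference (RBC minus HBC) of each tested gene in 6 related lists, 1 point per gene, coloured by call, with the list's median as a bar and the median of all tested genes (0.45) as a dashed line. The medians run from -0.21 for mitochondrial iron and heme to 1.08 for iron uptake, where 4 of 13 genes passed the filter only through the RBC library.

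Of 29 tested genes of mitochondrial iron and heme, 4 had a call toward RBCs, 3 toward HBCs and 22 had none (median log2 change -0.21). Of all tested genes, 53.0% had none, but 2652 of those tested passed the filter only through the RBC library, as no gene of this list did. The median over the 13788 tested genes with an HBC mean of at least 1 was 0.13, with 3239 called toward RBCs and 2105 toward HBCs. Alas1, the first enzyme of heme synthesis, was 4.39-fold higher in RBCs (2679 against 610 ± 28.4 (SD, n = 3), limma adjusted p = 0.00098). Blvrb, a biliverdin reductase, and Ppox, a late enzyme of heme synthesis, were 3.76-fold and 2.87-fold higher in RBCs. Nfu1, an iron-sulphur cluster carrier, Cisd1, a protein of the outer mitochondrial membrane, and Cpox, a heme synthesis enzyme, were 2.62-fold, 2.41-fold and 2.29-fold higher in HBCs. Hmox1, the inducible enzyme that frees iron from heme, was at 605 ± 52.0 (SD, n = 3) in HBCs and 575 in RBCs and was not called; its sign turned with values as deposited (log2 change 0.04), equal sums (0.03) and quantile normalization (0.04). Erythrocyte markers summed to between 27.3 and 42.4 in HBCs and to 281 in RBCs, with 2 of 6 tested called higher in RBCs, both of which passed the filter only through that library. Their part in the levels of the heme genes was not tested.

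**Figure D5:**
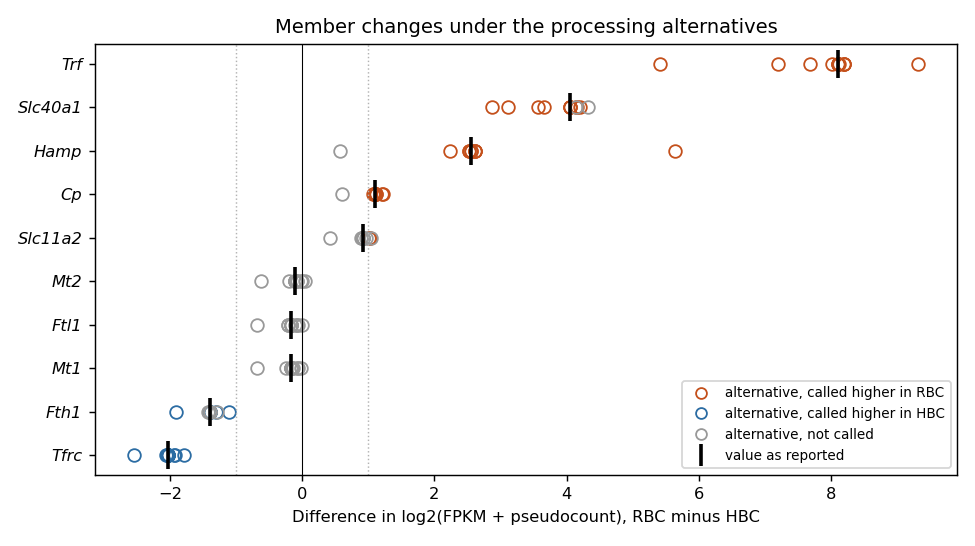
Log2 difference (RBC minus HBC) of each member as reported (black bar) and under each of the processing alternatives (open circles, coloured by call), with dotted lines at 2-fold. Tfrc keeps its call throughout, while Fth1, Slc40a1, Cp, Hamp and Slc11a2 change call in at least 1 alternative. Trf passed the filter only through the RBC library, so nothing is read from its call.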

How the data were processed

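RNA was sequenced from 3 HBC libraries and 1 RBC library. The authors deposited 1 table of FPKM values by gene symbol. STAR, Cufflinks 2.2.1, Cuffnorm and build mm9 are named in the submitters' processing notes, without roles. The annotation, strand setting and filters used upstream are not given. Columns were matched to samples by name.

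In genes with all values under 4, 12.4% to 26.0% of ratios between libraries lay within 2% of 1, and where HBC library 1 was one of the pair at most 1.18% lay within 2% of the ratio that removal of depth would give. Values were therefore divided by 1 factor per library: each gene's value was set against its geometric mean, and the median was taken over 11134 genes at 10 or more in all 4 libraries.

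A gene was tested (16440) if its HBC mean and RBC value averaged at least 1. With limma 3.58.1 (R 4.3.3), log2(value + 1) was compared by eBayes with trend, two-sided, with Benjamini-Hochberg adjustment. This scale understates changes of low genes; folds are ratios of scaled values. The procedure was tested on simulated data in which the lone library was given the spread of the HBC libraries. That setting cannot show whether the real RBC library varies as they do. A listed 0 may also be an estimate that failed.

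Members, lists and tests were chosen with earlier results of these data known. Named were all members, up to 3 called genes per list and direction with the largest changes, 10 fixed regulators and binding proteins, and the 3 nearest patterns for the most changed member each way. Alternatives were 4 scalings, 2 pseudocounts, 2 filters, no trend, and each HBC library left out. Promoters came from RefSeq (GRCm38.p6; 7 of 10 members matched) and transcripts from GENCODE M21.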

Additional observations from a re-analysis of the deposited data

How the results depend on the processing

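Over all genes, 3790 were called higher in HBCs with equal medians and 3589 under quantile normalization, against 2105 as reported, and 3042 were called higher in RBCs under quantile normalization, against 5621. The median change over all genes moved by 0.11 (log2) on the unscaled values and by 0.10 with equal sums, and by -0.52 with equal medians and -0.58 under quantile normalization. Members called higher in HBCs numbered 1 with values as deposited and with a pseudocount of 0.1, and 1 to 2 when 1 HBC library was left out, against 2 as reported. The member lost each time was Fth1. Its HBC SD was 2.16% of the HBC mean, beside 2.03% for Tfrc, but the SE of its log2 change was 0.27, beside 0.03 for Tfrc. The cause was not tested. Directions turned for Mt2 under quantile normalization (log2 change 0.039), for Hmox1 with values as deposited (0.0426), equal sums (0.0306) and quantile normalization (0.0386), and with equal medians for Aco1 (-0.35) and Fbxl5 (-0.30). None of these 4 genes was called in any alternative. Hamp was below the filter, and so had no value, with a minimum of 5 and under quantile normalization. No paired analysis was possible because the groups share only replicate number 1 and the RBC group has 1 library. Depth in reads is unknown, which limits what can be said of genes near single reads, such as Trf, Heph and Cybrd1 in HBCs.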
